A study of Mus musculus with 12 samples.

Results

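The genes that macrophages use to bind and take up dying cells, together with their scavenger receptors, were followed across 4 groups of mouse bone marrow-derived macrophages. The set holds 10 of the 12441 genes in the deposited expression tables, picked by symbol: Gas6, Pros1, Mfge8, Mertk, Axl, Stab1, Marco, Msr1, Scarb1 and Olr1. Marrow cells, freed of red blood cells, were cultured for 6 days in medium containing L929-conditioned medium, a source of macrophage colony-stimulating factor. The groups were wild type (WT) without stimulation, COQ6 D316Y homozygous (D316Y) without stimulation, WT with lipopolysaccharide (LPS, 100 ng/mL for 24 h) and D316Y with the same LPS treatment, with 3 libraries in each. COQ6 is a mitochondrial enzyme of coenzyme Q synthesis, and LPS is the bacterial outer membrane component sensed by Toll-like receptor 4. The sources used here give neither strain, age nor the number of animals. They also do not state whether replicates are separate animals or cultures. The p-values therefore measure only the spread between these libraries, which may be technical.

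Efferocytosis is the clearance of apoptotic cells, which expose phosphatidylserine on their surface. The bridging protein GAS6 couples that lipid to the receptor tyrosine kinases MERTK and AXL. Protein S (Pros1) couples it to MERTK, and MFG-E8 (Mfge8) couples it to αv integrins. Stabilin-1 (Stab1) binds phosphatidylserine and modified lipoproteins directly, MARCO and MSR1 are class A scavenger receptors for bacteria and modified low-density lipoprotein, SR-BI (Scarb1) is the receptor for high-density lipoprotein, and LOX-1 (Olr1) is a receptor for oxidised low-density lipoprotein.

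Each library held 32.8 to 47.2 M reads in the tabulated genes. All 8 macrophage markers had at least 3 reads in every library. Their summed level was 32513 to 39322 CPM without LPS and 54912 to 70804 with LPS. CPM are counts scaled to an effective library size, described with the processing. None of the 7 lymphocyte markers is in the table, and 5 of the 10 neutrophil markers are, with a sum of 7.01 to 30.0 CPM without LPS and 30.2 to 55.2 with LPS. The 4 monocyte and progenitor markers of 5 that are in the table summed to 69.1 to 91.3 CPM without LPS and 180.0 to 250.4 with LPS. The 4 dendritic cell markers of 7 in the table summed to 3.65 to 5.16 CPM without LPS and 14.4 to 22.1 with LPS, and the 4 osteoclast markers of 5 to 38.3 to 122.8 and 96.1 to 146.6. The stromal (3 of 7), endothelial (2 of 5), erythroid (1 of 5) and mast cell and basophil (1 of 5) markers in the table summed to at most 4.92, 6.55, 2.68 and 1.71 CPM in any library. The part of these other cell types in the LPS results was not tested. The LPS-induced genes Il1b, Acod1, Nos2 and Il6 all rose with LPS in both genotypes, for Il1b by 8.20 on the log2 scale in WT (SE 0.23, limma adjusted p 1.81e-11) and 8.91 in D316Y (SE 0.23, adjusted p 9.74e-12). Nos2 and Il6 reached the group mean of 0 log2 CPM needed for testing only with LPS, so only a rise was possible for them. The unstimulated replicate 1 libraries stood apart, with 0.449% (WT) and 0.949% (D316Y) of their reads from mitochondrially encoded genes, against 1.97% to 2.97% in the other unstimulated libraries. In unstimulated WT, replicate 1 was also the highest library for 8 of the 10 members, and in unstimulated D316Y for 6 of them.

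Levels of different genes were compared as CPM per kilobase of exon. In unstimulated WT the order from the top was Mfge8 (89.0), Gas6 (48.5), Msr1 (25.2), Stab1 (24.4), Scarb1 (13.4), Axl (11.9), Pros1 (11.3), Mertk (9.07), Marco (4.20) and Olr1 (0.0142), each a mean of 3 libraries in CPM per kilobase. The libraries of the neighbours Msr1 and Stab1, Scarb1 and Axl, Axl and Pros1, Pros1 and Mertk, and Mertk and Marco overlapped, so their order within these pairs is not beyond the spread. In WT with LPS the order was Marco (248), Msr1 (124), Mfge8 (35.9), Stab1 (18.7), Scarb1 (10.2), Mertk (9.88), Gas6 (8.53), Axl (4.61), Pros1 (3.98) and Olr1 (0.0825) CPM per kilobase. Here Scarb1 and Mertk, Mertk and Gas6, and Axl and Pros1 overlapped. Marco thus stood next to last without LPS and at the top with LPS, and the bridging genes Mfge8 and Gas6 stood lower in the order. The D316Y groups had the same gene at the top as the matching WT groups, Mfge8 without LPS (83.0 CPM per kilobase) and Marco with LPS (157). In D316Y without LPS, Axl (12.5) stood above Scarb1 (10.7), with overlapping libraries.

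**Figure D1:**
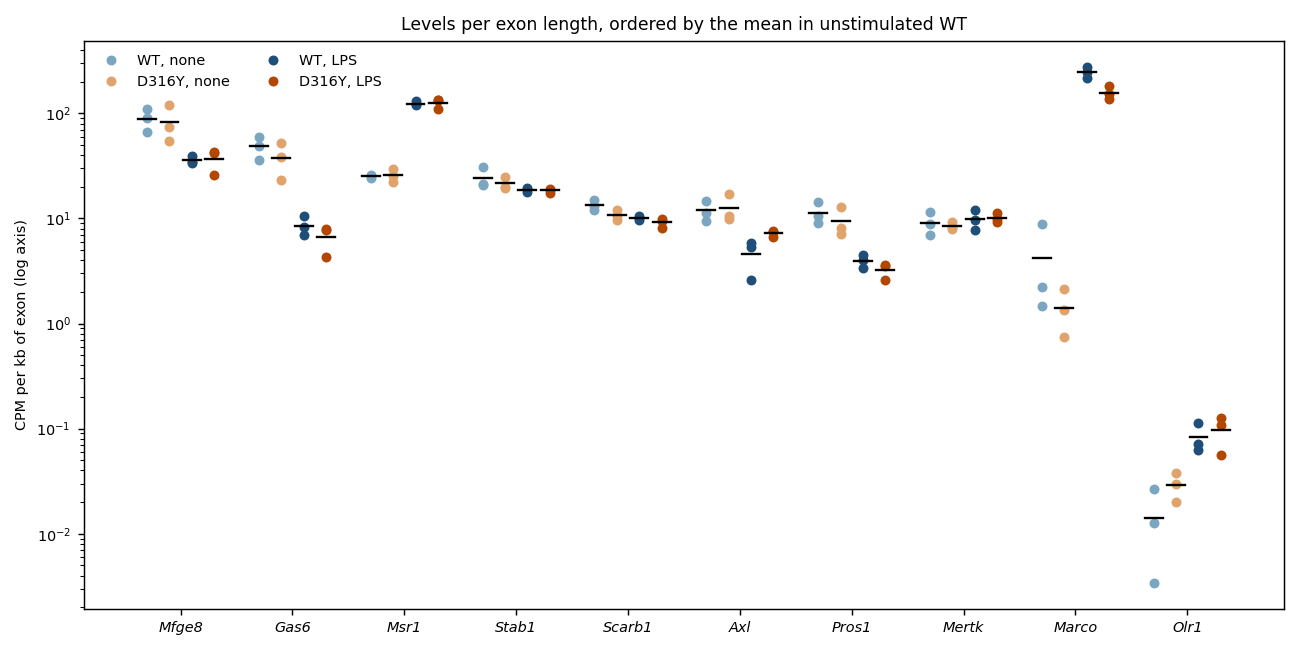
Level of each of the 10 genes as CPM per kilobase of exon on a log axis, 1 point per library in each of the 4 groups. Mfge8 is the highest without LPS and Marco with LPS in both genotypes, and Olr1 is the lowest everywhere.

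The LPS comparison asks how each genotype's macrophages changed their uptake genes after 24 h. In WT, 7 of the 9 members tested passed (limma, Benjamini-Hochberg adjusted p under 0.05): Marco and Msr1 rose, and Gas6, Pros1, Mfge8, Axl and Scarb1 fell. Over all 11663 genes tested, 18.1% passed as higher and 19.0% as lower. In D316Y, 5 of 9 passed, with Marco and Msr1 higher and Gas6, Pros1 and Mfge8 lower, against 19.4% of 11795 genes higher and 19.0% lower. Without both unstimulated replicate 1 libraries, 6 of 9 members passed in WT (all but Scarb1 of the 7) and 5 of 9 in D316Y. Over all genes, 2464 of 11752 then passed as higher and 2458 as lower in WT. In D316Y these were 2639 and 2578 of 11890. Members' median log2 change was -0.39 in WT and -0.22 in D316Y, beside medians over all genes of -0.0056 and -0.026. Olr1 lay under the filter on low values (0 log2 CPM or more as the mean of a group) and was not tested. Overlap of libraries between the treatments was not counted over all genes, so it is given below only as a description. Libraries also did not overlap for Stab1 in either genotype and for Mertk in D316Y, changes that did not pass. In bulk RNA, fewer cells of a type and less RNA per cell cannot be told apart.

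Gas6 (ENSMUSG00000031451), the bridging ligand that binds AXL and MERTK, lies at chr8:13465374-13494490 on the minus strand (GRCm38, GENCODE M21, matched by identifier). It drew 8537, 5975 and 3772 reads in unstimulated WT replicates 1, 2 and 3 and 905, 667 and 1098 with LPS. In D316Y it drew 3086, 5470 and 6462 reads without LPS and 394, 747 and 658 with LPS. Every LPS library lay under every unstimulated library of its genotype. The mean fell from 6.92 ± 0.37 to 4.42 ± 0.30 log2 CPM in WT (SD, n = 3), a 5.64-fold lower level (log2 change -2.50, SE 0.31, limma adjusted p 2.85e-05). In D316Y it fell from 6.52 ± 0.59 to 4.03 ± 0.51 log2 CPM (SD, n = 3), 5.63-fold lower (-2.49, SE 0.31, adjusted p 2.55e-05). D316Y replicate 1 held the lowest Gas6 of its group both without and with LPS.

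Pros1 (ENSMUSG00000022912, chr16:62854307-62929346, plus strand), which encodes protein S, the bridging ligand of MERTK, had 5.87, 5.43 and 5.21 log2 CPM in unstimulated WT and 4.20, 3.78 and 4.05 with LPS. In D316Y it had 5.72, 5.06 and 4.85 log2 CPM without and 3.41, 3.86 and 3.87 with LPS. The LPS libraries did not overlap with the unstimulated ones in either genotype. Pros1 fell 2.82-fold in WT (log2 change -1.49, SE 0.23, limma adjusted p 0.000208) and 2.82-fold in D316Y (-1.50, SE 0.23, adjusted p 0.000178). Per length, the Gas6 level was 4.28 ± 0.37 times that of Pros1 in unstimulated WT (SD, n = 3) and 2.15 ± 0.39 times with LPS, and every LPS library had a lower ratio than every unstimulated library. In D316Y the ratio was 1.80, 4.75 and 7.36 in the 3 unstimulated libraries (lowest in replicate 1, which had the lowest Gas6 and the highest Pros1), and 2.01 ± 0.33 with LPS (SD, n = 3).

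Mfge8 (ENSMUSG00000030605, chr7:79133768-79149060, minus strand) bridges phosphatidylserine to integrins. It had 9.0, 8.29 and 8.74 log2 CPM in unstimulated WT and 7.31, 7.35 and 7.52 with LPS, and in D316Y 9.14, 8.43 and 8.02 without and 7.61, 7.65 and 6.92 with LPS. The 2 treatments did not overlap in either genotype. Mfge8 fell 2.43-fold in WT (log2 change -1.28, SE 0.28, limma adjusted p 0.00241) and 2.20-fold in D316Y (-1.14, SE 0.28, adjusted p 0.00499). All 3 bridging molecules of the set therefore fell with LPS in both genotypes, and each passed in all alternative settings run.

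Of the receptor tyrosine kinases, Axl passed in WT and Mertk in neither genotype. Axl (ENSMUSG00000002602, chr7:25757273-25788705, minus strand) had 6.22, 5.84 and 5.59 log2 CPM in unstimulated WT and 4.76, 3.71 and 4.88 with LPS. It fell 2.70-fold in WT (log2 change -1.43, SE 0.29, limma adjusted p 0.00145). In D316Y it had 6.43, 5.73 and 5.64 log2 CPM without and 5.23, 5.27 and 5.06 with LPS, groups that did not overlap, but the change of -0.75 (SE 0.29, adjusted p 0.0545) missed the threshold. Over all 15 alternatives the D316Y adjusted p of Axl ran from 0.0147 to 0.195, and 3 passed. With the replicate number as a block it was 0.0242. However, same-numbered D316Y libraries correlated in their deviations by -0.204, -0.261 and -0.152 across treatment, which gives no ground for that block. Mertk (ENSMUSG00000014361, chr2:128698956-128802894, plus strand), the main efferocytic receptor of this family in macrophages, had 5.65, 5.25 and 4.90 log2 CPM in unstimulated WT and 5.40, 5.07 and 5.72 with LPS, which overlap. In D316Y Mertk had 5.18, 5.31 and 5.12 without and 5.41, 5.60 and 5.32 with LPS. Its change did not pass in WT (0.13, SE 0.19, adjusted p 0.640) or in D316Y (0.24, SE 0.19, adjusted p 0.352). The per-length ratio of Axl to Mertk was 1.32 ± 0.05 in unstimulated WT (SD, n = 3) and 0.553, 0.335 and 0.482 in the WT libraries with LPS, so Axl stood above Mertk without LPS and below it with LPS. In D316Y the ratio was 2.05, 1.15 and 1.23 without and 0.759, 0.683 and 0.717 with LPS.

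Marco (ENSMUSG00000026390, chr1:120474538-120505024, minus strand), the class A scavenger receptor that binds bacteria, rose most in the set. Unstimulated WT libraries held 951, 205 and 117 Marco reads, and WT libraries with LPS 23160, 15812 and 19815. In D316Y it had 136, 78 and 200 reads without and 9551, 11224 and 11365 with LPS. WT replicate 1 without LPS was far above the other unstimulated libraries, yet no library overlapped between treatments. The rise was 79.9-fold in WT (log2 change 6.32, SE 0.51, limma adjusted p 5.99e-07), and 7.08 on the log2 scale without WT replicate 1. It was 121-fold in D316Y (6.92, SE 0.51, adjusted p 2.54e-07). Msr1 (ENSMUSG00000025044, chr8:39581685-39642673, minus strand), the class A receptor for modified lipoproteins, had 7.33, 7.25 and 7.38 log2 CPM in unstimulated WT and 9.61, 9.56 and 9.69 with LPS. It rose 4.92-fold in WT (2.30, SE 0.15, adjusted p 7.52e-08) and 4.93-fold in D316Y (2.30, SE 0.15, adjusted p 6.72e-08). In D316Y its values were 7.56, 7.33 and 7.13 without and 9.73, 9.75 and 9.44 with LPS, with a clear gap between the treatments. Per length, the Msr1 level was 2.87, 10.7 and 17.7 times that of Marco in the unstimulated WT libraries and 0.504 ± 0.057 times with LPS (SD, n = 3), so the order of these class A receptors turned over.

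Stab1 (ENSMUSG00000042286, chr14:31139013-31168641, minus strand) and Scarb1 (ENSMUSG00000037936, chr5:125277087-125341094, minus strand) moved less. Stab1 had 8.32, 7.79 and 7.73 log2 CPM in unstimulated WT and 7.64, 7.52 and 7.60 with LPS, a change of -0.36 (SE 0.17, limma adjusted p 0.106) that did not pass. In D316Y Stab1 went from 8.01, 7.66 and 7.69 to 7.59, 7.62 and 7.50 (-0.22, SE 0.17, adjusted p 0.330). Stab1 overlaps Nt5dc2 on the opposite strand, and whether the authors' counting used strand is not given in the sources used here. If it did not, reads from the shared stretch could not be told apart. How much of Stab1 that stretch covers was not examined. Scarb1, the lipoprotein receptor that also takes up cholesterol esters, had 6.99, 6.68 and 6.80 log2 CPM in unstimulated WT and 6.50, 6.36 and 6.44 with LPS, without overlap, and fell 1.31-fold (-0.39, SE 0.14, adjusted p 0.0367). Without both unstimulated replicate 1 libraries its limma adjusted p was 0.0547, and over 15 alternatives it ran from 0.0318 to 0.106. In D316Y Scarb1 had 6.67, 6.35 and 6.50 without and 6.10, 6.34 and 6.41 with LPS, which overlap, and did not pass (-0.22, SE 0.14, adjusted p 0.217).

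Olr1 (ENSMUSG00000030162, chr6:129485244-129507165, minus strand), the oxidised lipoprotein receptor, was near the limit of detection. In WT it drew 2, 4 and 0 reads without LPS against 17, 8 and 10 with LPS. In D316Y it drew 5, 7 and 3 without LPS against 16, 14 and 6 with LPS. The LPS libraries held more reads than the unstimulated ones in WT without overlap. When no filter was applied, the WT change was 2.94 on the log2 scale (SE 0.81, limma adjusted p 0.0117) and the D316Y change 1.69 (SE 0.81, adjusted p 0.119), values that at so few reads depend on the small number added to each count.

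**Figure D2:**
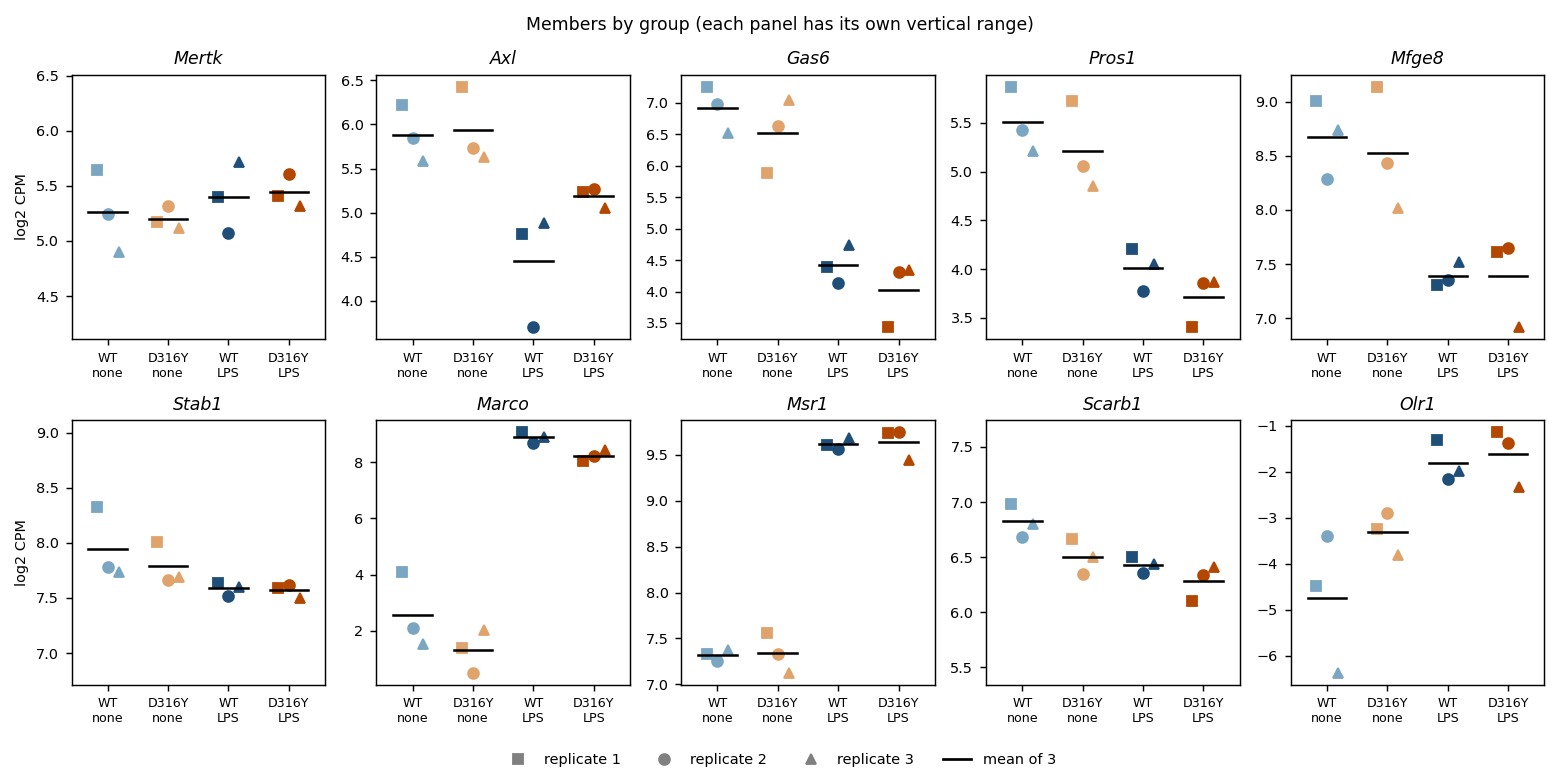
Log2 CPM of the 10 members, 1 panel per gene and 1 point per library, by group; bars mark group means. The gap between LPS and unstimulated libraries is widest for Marco and narrow or absent for Mertk and Stab1, and the Olr1 library with 0 reads sits at the value of the small number added to every count.

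**Figure D3:**
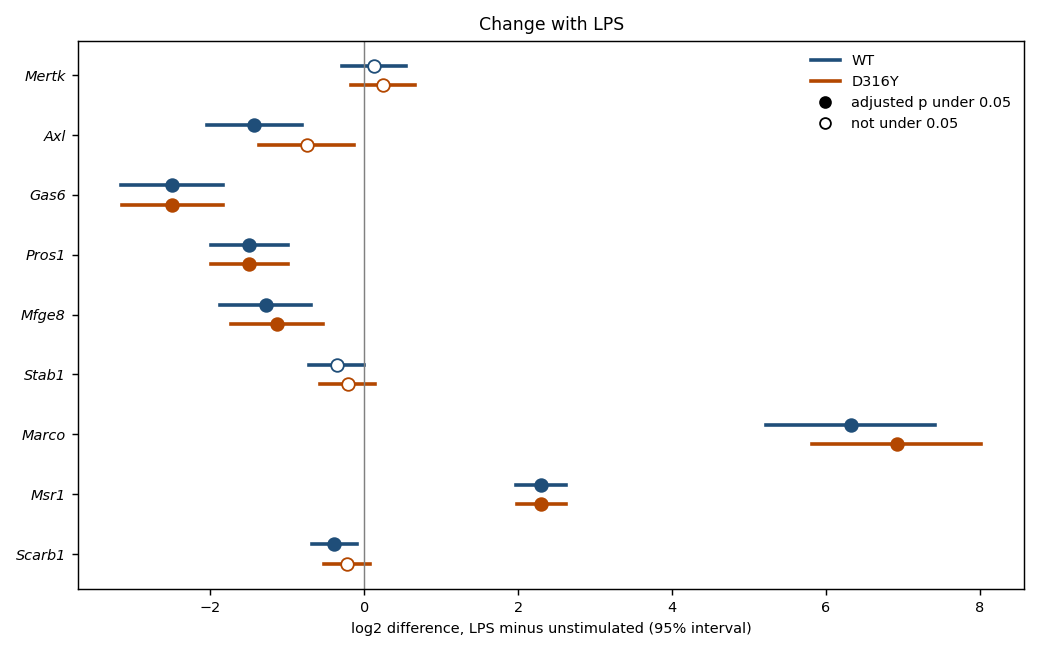
Log2 change with LPS of the 9 members tested, with its 95% interval, in WT and in D316Y. Marco and Msr1 lie above 0 and Gas6, Pros1 and Mfge8 below it in both genotypes, while the interval of Mertk includes 0.

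Promoter sequences are shown for Marco, the member with the largest rise, and for Gas6 and Pros1, the ligands with the largest falls, as a reference for the letters upstream of genes that moved in opposite directions. They were taken from RefSeq (GRCm38.p6), 250 bases before to 50 after the start, and 8 of the 10 members had an entry there. Capitals mark matches, on either strand, to 4 motifs: AP-1 (TGANTCA), kappa B (GGNNTTTCC), ISRE (GAAANNGAA) and ETS (AGGAAG), of which ETS can overlap the others.
Marco, chr1:120504975-120505274, minus strand: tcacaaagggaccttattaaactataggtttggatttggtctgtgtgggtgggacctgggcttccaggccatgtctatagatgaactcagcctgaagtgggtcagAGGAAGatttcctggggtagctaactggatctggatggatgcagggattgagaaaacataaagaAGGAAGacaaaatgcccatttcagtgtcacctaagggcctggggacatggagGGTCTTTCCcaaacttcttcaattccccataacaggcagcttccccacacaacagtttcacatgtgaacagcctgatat
Gas6, chr8:13494486-13494785, minus strand: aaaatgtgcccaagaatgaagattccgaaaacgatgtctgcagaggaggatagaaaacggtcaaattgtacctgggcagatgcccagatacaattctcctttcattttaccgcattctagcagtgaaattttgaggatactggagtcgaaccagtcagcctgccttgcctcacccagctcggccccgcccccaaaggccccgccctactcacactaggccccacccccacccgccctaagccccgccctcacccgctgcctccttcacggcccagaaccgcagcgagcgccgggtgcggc
Pros1, chr16:62854057-62854356, plus strand: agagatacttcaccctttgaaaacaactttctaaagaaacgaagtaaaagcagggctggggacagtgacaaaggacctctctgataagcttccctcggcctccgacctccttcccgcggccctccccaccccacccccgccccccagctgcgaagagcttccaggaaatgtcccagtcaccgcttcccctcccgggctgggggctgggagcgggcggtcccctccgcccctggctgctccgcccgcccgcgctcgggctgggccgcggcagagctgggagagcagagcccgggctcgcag
The Marco window held 1 kappa B match, GGTCTTTCC, at -29 relative to the gene's start, and 2 ETS matches, at -145 and -81. The Gas6, Pros1 and Mertk windows held none of the 4. Of the others, Olr1 held an AP-1 match at -60 and an ETS match at -82, and Axl, Mfge8 and Stab1 held 1 ETS match each. Over 32851 promoters of the same length, 7.81% held AP-1, 5.82% kappa B, 8.56% ISRE and 35.4% ETS. A match is a stretch of letters and not a binding site.

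The genotype comparison at rest asks how D316Y macrophages differed from WT before stimulation. None of the 9 members tested passed in limma, none had an unadjusted p under 0.05, and none passed with voom weights on the reads recovered from the table; 0.00868% of 11525 genes passed. With the replicate number as a block 0 of 9 members passed and 2 had an unadjusted p under 0.05, beside 18.4% of all genes. Without both unstimulated replicate 1 libraries 0 of 9 passed and 2 had an unadjusted p under 0.05, beside 13.2% of all genes. Members' median difference was -0.16 beside -0.02 over all genes tested, and 7 of 9 were negative. Without WT replicate 1 the median was 0.016 and 4 of 9 were negative, so neither the median's sign nor the count holds without that library. Overlap between the genotypes was not counted over all genes, at rest or with LPS, so it is given only as a description. Scarb1 (6.99, 6.68 and 6.80 log2 CPM in WT, 6.67, 6.35 and 6.50 in D316Y) was the 1 member whose groups did not overlap. Its difference was -0.32 (SE 0.17, 95% interval -0.70 to 0.06, limma adjusted p 0.942), with an adjusted p of 0.144 with the replicate block and of 0.144 to 1.00 over 15 alternatives. Marco differed by -1.26 (SE 0.65, interval -2.75 to 0.22, adjusted p 0.942), but by -0.50 without WT replicate 1, its highest library. The remaining intervals were narrower than that of Marco: Mertk -0.52 to 0.40, Axl -0.53 to 0.63, Msr1 -0.38 to 0.42, Stab1 -0.66 to 0.34, Gas6 -1.11 to 0.32, Pros1 -0.89 to 0.30 and Mfge8 -0.88 to 0.58. With the replicate block the 95% intervals lay below 0 for Scarb1 (-0.51 to -0.12) and for Pros1 (-0.52 to -0.07, limma adjusted p 0.183), though neither passed over all genes. The blocked intervals of the other 7 members included 0. In the authors' deposited table the smallest adjusted p among the 10 members at rest was 0.148, for Scarb1, with a log2 fold change of -0.341. The authors' deposited table gives Gas6 a log2 fold change of 0.0967 where the means of all 6 libraries differ by -0.40, so its values are not plain differences of the deposited columns. Without both unstimulated replicate 1 libraries the Gas6 means differed by 0.091. On the same libraries Marco differed by -0.54 and Mertk by 0.14, beside -0.585 and 0.186 in the authors' deposited table. Not every member followed this pattern. Over all 6 libraries Axl differed by 0.050 and Pros1 by -0.30, beside 0.0539 and -0.29 in the authors' deposited table. Without both unstimulated replicate 1 libraries the Axl difference was negative. How the authors' values were computed was not tested.

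With LPS the question is whether the genotypes differed after stimulation. None of the 9 members passed in limma or with voom weights, 2 had an unadjusted p under 0.05, and 0.0442% of 11306 genes passed, while 6.50% of genes had an unadjusted p under 0.05. Members' median difference was -0.02 beside -0.003 over all genes, and 0.016 without D316Y replicate 3. Marco had 9.07, 8.70 and 8.91 log2 CPM in WT and 8.04, 8.21 and 8.45 in D316Y, and the groups did not overlap. It was 1.58-fold lower in D316Y, a difference of -0.66 (SE 0.14, 95% interval -0.98 to -0.35, limma adjusted p 0.346). Over the alternatives it lay between -0.77 and -0.56, and it passed in 1 of 14, without WT replicate 2 (-0.76, adjusted p 0.0192; range of adjusted p 0.0192 to 1.00). In the authors' deposited table Marco has a log2 fold change of -0.713 and an adjusted p of 0.167.

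Axl also did not overlap, with 4.76, 3.71 and 4.88 log2 CPM in WT and 5.23, 5.27 and 5.06 in D316Y. WT replicate 2 was the lowest by more than a log2 unit. The difference of 0.73 (SE 0.25, 95% interval 0.19 to 1.28, limma adjusted p 0.602) was 0.36 without that library. In the authors' deposited table it is 0.486, with an adjusted p of 0.532. The other members had intervals of -0.91 to 0.12 for Gas6, -0.68 to 0.08 for Pros1, -0.42 to 0.12 for Scarb1, -0.31 to 0.41 for Mertk, -0.26 to 0.30 for Msr1, -0.26 to 0.23 for Stab1 and -0.39 to 0.39 for Mfge8. Gas6 differed by -0.39 and Pros1 by -0.30, and neither passed. Without D316Y replicate 1, the lowest library of its group for both genes, the differences were -0.10 for Gas6 and -0.15 for Pros1.

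**Figure D4:**
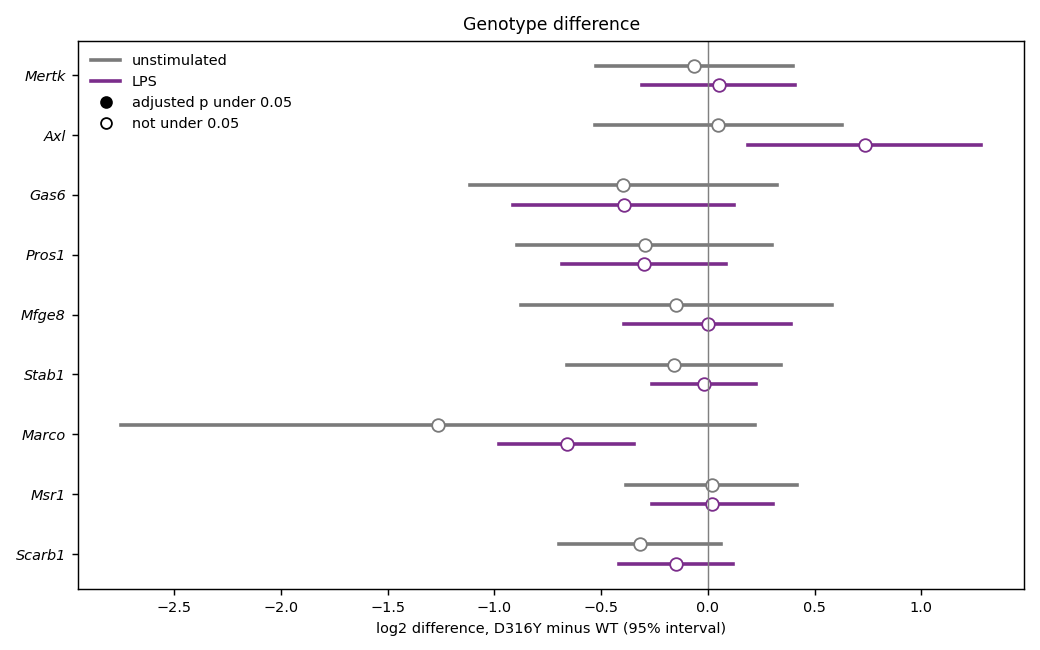
D316Y minus WT difference in log2 CPM of the 9 tested members with 95% intervals, without LPS and with LPS. With LPS the intervals of Marco (below 0) and Axl (above 0) exclude 0, but neither passed after adjustment over all genes.

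Whether LPS acted differently in the genotypes was tested as an interaction. None of the 9 members passed in limma or with voom weights, none had an unadjusted p under 0.05, and 0% of 11918 genes passed, with 251 genes at an unadjusted p under 0.05. For Axl the interaction was 0.68 (SE 0.40, 95% interval -0.19 to 1.56, limma adjusted p 0.999) and for Marco 0.60 (SE 0.72, interval -0.95 to 2.16). The Axl change that passed in WT and not in D316Y was therefore not shown to differ between them.

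Other genes of these pathways were taken from 8 lists. Of 79 genes, 70 are in the table and 69 were tested for LPS: 16 rose, 27 fell and 26 did not pass in WT, and 16 rose, 26 fell and 27 did not pass in D316Y. Over all genes tested, 18.1% passed as higher and 19.0% as lower in WT, and 19.4% and 19.0% in D316Y, and counts in single lists such as 1 of 10 or 2 of 8 lie near those shares. Without both unstimulated replicate 1 libraries the list genes that rose, fell and did not pass were 17, 25 and 27 in WT and 18, 26 and 25 in D316Y. Over all genes, 2464 of 11752 then passed as higher and 2458 as lower in WT, and 2639 and 2578 of 11890 in D316Y. Of the phosphatidylserine receptors and their partners, 1 of 7 rose and 6 fell in both genotypes. Among those that fell, Itgb3 and Stab2 passed the filter on low values only through the unstimulated groups, so only a fall was possible for them. Cd300a, a receptor that binds phosphatidylserine, fell 7.43-fold in WT (log2 change -2.89, SE 0.13, limma adjusted p 2.74e-09). Stab2, the relative of Stab1, fell 17.7-fold in WT and 14.8-fold in D316Y, from 321, 408 and 280 reads to 7, 24 and 22 in WT. Itgb5, an integrin subunit that pairs with αv, fell 2.00-fold in WT. Cd300lf rose 2.97-fold in WT and 3.63-fold in D316Y.

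Of the other bridging molecules and opsonins, 2 of 8 rose and 3 fell in both genotypes. Anxa1, which encodes annexin A1, fell 4.69-fold in WT and 5.23-fold in D316Y, and Apoe fell 2.33-fold and 1.98-fold. Calr, which encodes calreticulin, an engulfment signal when exposed on the cell surface, rose 1.56-fold in WT. C1qc, a chain of C1q, did not pass (-0.37, SE 0.23, limma adjusted p 0.223). Of the other scavenger receptors, 3 of 10 rose and 5 fell in both genotypes. Mrc1, the mannose receptor, fell 11.1-fold in WT and 17.1-fold in D316Y, and Cd5l fell 6.32-fold and 6.44-fold. Cxcl16, a scavenger receptor and chemokine, rose 2.27-fold and 2.70-fold.

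Engulfment signalling had 3 of 10 genes higher and 4 lower in WT, and 3 higher and 5 lower in D316Y. Src, a tyrosine kinase of engulfment signalling, rose 7.71-fold in WT, from 34, 21 and 32 reads to 177, 219 and 175, and Elmo1, part of the complex that activates Rac1, fell 1.86-fold. Src passed the filter on low values only through the LPS groups, so only a rise was possible for it. Rac1 itself did not pass (0.19, SE 0.16, limma adjusted p 0.387). Of the shedding enzymes and do-not-eat-me signals, 1 of 6 rose and 1 fell in WT, with Rhbdf2, a partner of the sheddase ADAM17, 2.01-fold higher and Cd24a 23.1-fold lower. Cd24a passed the filter only through the unstimulated groups, so only a fall was possible for it. In D316Y, 2 of 6 rose and 1 fell.

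Of the nuclear receptors and transcription factors, 1 of 10 rose and 3 fell in WT, and 2 rose and 3 fell in D316Y. Pparg, the lipid-sensing receptor, fell 42.1-fold in WT and 36.9-fold in D316Y, from 1924, 1433 and 1408 reads to 24, 40 and 32 in WT. Nr1h3, which encodes the oxysterol receptor LXRα, rose 3.09-fold in WT and 3.62-fold in D316Y. Klf4, a Krüppel-like transcription factor, fell 3.42-fold in WT and 2.76-fold in D316Y. Pparg in both genotypes and Klf4 in WT passed the filter on low values only through the unstimulated group, so only a fall was possible there. Of the cholesterol-handling genes, 2 of 8 rose and 3 fell in WT, and 1 rose and 3 fell in D316Y. Lipa, the lysosomal acid lipase, fell 5.17-fold in WT and 5.40-fold in D316Y, while Npc2, which moves cholesterol out of lysosomes, rose 1.84-fold and 2.11-fold. Of the LC3-associated phagocytosis genes, 3 of 10 rose and 2 fell in WT, and 2 rose and 0 fell in D316Y. Atg5 rose 2.26-fold in WT and 2.29-fold in D316Y. Rubcn, which encodes Rubicon, fell 1.51-fold in WT (limma adjusted p 0.0317) and stood at -0.14 in D316Y (adjusted p 0.632). Its interaction was 0.46 (SE 0.28, limma adjusted p 0.999), so the change was not shown to differ between the genotypes.

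The genotype difference passed for none of these list genes, 0 of 68 without LPS, 0 of 65 with LPS and 0 of 69 for the interaction, in limma and with voom weights. At an unadjusted p under 0.05 there were 2, 6 and 0, beside 2.92%, 6.50% and 2.11% of all genes. At rest there were 16 of 68 with the replicate block, beside 18.4% of all genes, and 17 of 68 without both unstimulated replicate 1 libraries, beside 13.2%. For the interaction there were 3 of 69 without those libraries, beside 2.16%. The member of the lists with the smallest adjusted p with LPS was Cd300lf, 1.60-fold higher in D316Y (0.68, SE 0.16, limma adjusted p 0.426). Its WT libraries with LPS stood at 4.81, 5.14 and 4.96 log2 CPM and its D316Y libraries at 5.90, 5.74 and 5.32, without overlap. How many of all genes showed no such overlap was not counted.

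**Figure D5:**
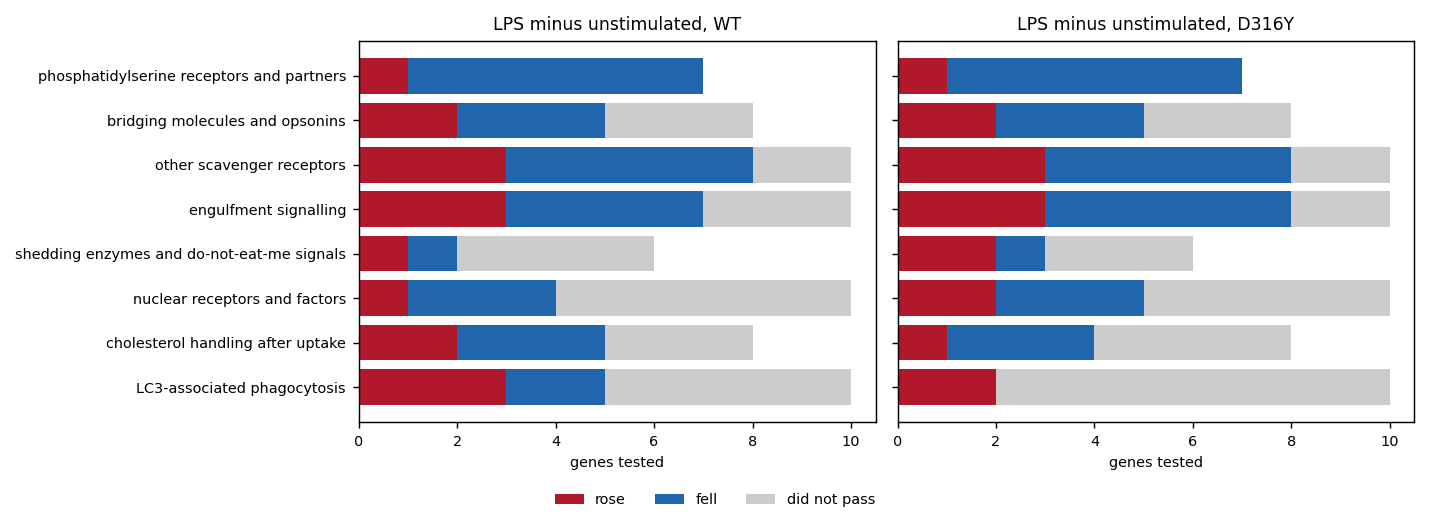
Number of list genes that passed as higher, passed as lower or did not pass with LPS in WT and in D316Y, for the 8 pathway lists. The phosphatidylserine receptor list has 6 of 7 genes lower in both genotypes, and the LC3-associated phagocytosis list has 2 of 10 higher and 0 lower in D316Y. Itgb3 and Stab2 of the first list passed the filter on low values only through the unstimulated groups and could only fall.

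The genes whose levels ran most like those of 3 members were ranked by Pearson's r over the 12 libraries, among 9633 genes, as a description in which all libraries share the step between the treatments. For Marco they were Ehd1 (0.998), Lpcat2 (0.997) and Ubac2 (0.996), for Mertk they were Mtmr4 (0.886), Eloa (0.884) and Cog4 (0.865), and for Olr1 they were Lrrk2 (0.935), Mapkbp1 (0.923) and Tbc1d9 (0.919). As the highest of 9633 correlations over 12 libraries, such values can be high through selection alone. Mertk had no change with LPS that passed, and Olr1 drew only 0 to 17 reads, so its pattern depends partly on the small number added to each count.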

How the data were processed

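RNA-seq values of 12 libraries in 4 groups of 3 (WT and D316Y, unstimulated or 24 h LPS) were used as deposited. Per the submitters' processing notes the authors used limma, edgeR, featureCounts 1.4.6-p5 of Subread, the aligner STAR 2.5.1a and bcl2fastq. Genome build, annotation and the step each tool served: not given in the sources used here. The authors deposited 2 tables of log2 CPM, with log2 fold changes, p-values and adjusted p-values of their own genotype comparisons, per the file headers. CPM are counts scaled to an effective library size, recovered here from the values. It exceeded the tabulated reads in every unstimulated library (WT replicate 1, 55.8 M against 46.9 M). With LPS it lay under them in every library (WT replicate 2, 38.0 M against 46.1 M). LPS changes rest on that scaling, which matters most for small ones such as Mertk, Stab1 and Scarb1. Under it, library medians differed by -0.040 (WT) and -0.052 (D316Y) with LPS. The authors' log2 values of the 12 libraries were identical in both tables. Of 12493 entries, 52 repeated identifiers were taken once. All 12441 identifiers were found in GENCODE M21 (GRCm38), and 15 symbols turned into dates were restored. Whole reads were recovered: in each library 100% of values under 200 reads lay within 0.01 of a whole number after an added 0.5.

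Differences were tested with limma 3.58.1 (R 4.3.3, trend and robust eBayes), two-sided, with Benjamini-Hochberg adjustment over all tested genes, a threshold of 0.05 and a filter of group mean at least 0 log2 CPM. Genotype comparisons used 6 libraries; LPS and interaction used 1 fit of 12. The script was tested on simulated data. Alternatives were a replicate block, other filters, eBayes settings, centring, a pseudocount of 5 reads, voom, other library sets and each library left out. Same-numbered libraries correlated in their deviations by 0.671, 0.667 and 0.225 at rest, so the block is given there. The values were -0.180, 0.0784 and -0.0326 with LPS, and by 0.467, 0.275 and -0.121 (WT) and -0.204, -0.261 and -0.152 (D316Y) across treatment. Named genes are the 10 members, up to 4 per list (the smallest adjusted p for LPS in WT and for genotype with LPS), the 3 closest in pattern to Mertk, Marco and Olr1, and 4 LPS genes. Members and lists were chosen with earlier results of these data known. Fold changes are on the log2 scale with about 0.5 read added, which understates changes of low genes. A gene named by the rule for the lists is not reported here.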

Additional observations from a re-analysis of the deposited data

How the results depend on the processing

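Marco, Msr1, Gas6, Pros1 and Mfge8 with LPS passed in all 15 alternatives in both genotypes, as did Axl in WT. Scarb1 in WT passed in 6 of 15, and Axl in D316Y in 3 of 15. Over all member values, 643 kept direction and side, 55 reversed, 4 gained and 9 lost significance. Genes passing for genotype at rest numbered 1 and came to 6 with the replicate block, 0 without a filter, 0 with plain eBayes, 4 in the fit of 4 groups, 10 without both replicate 1 libraries, and 0 to 1 with each library left out. With LPS the 5 genes came to 1 with plain eBayes and 2 to 22 with each library left out, and members passing to 0 to 1. The replicate block changed the call of Axl with LPS in D316Y and of no other member. Without both unstimulated replicate 1 libraries the difference at rest reversed for Axl (-0.030), Mertk (0.14), Msr1 (-0.085) and Gas6 (0.091), and the interaction for Mertk (-0.091), Pros1 (0.066), Marco (-0.12) and Gas6 (-0.49). The interaction was 0.0094 for Pros1 with median centring and -0.0092 for Gas6 with voom. With each library left out, the difference at rest ran from -0.20 to 0.22 for Axl, -0.24 to 0.13 for Mertk, -0.092 to 0.12 for Msr1, -0.45 to 0.11 for Mfge8 and -0.27 to 0.027 for Stab1. With LPS it ran from -0.11 to 0.21 for Mertk, -0.031 to 0.12 for Msr1, -0.13 to 0.24 for Mfge8 and -0.051 to 0.016 for Stab1, and the WT LPS change of Mertk from -0.051 to 0.32. The interaction ran from -0.077 to 0.29 for Mertk, -0.19 to 0.25 for Pros1, -0.10 to 0.11 for Msr1, -0.16 to 1.13 for Marco, -0.11 to 0.45 for Mfge8, -0.32 to 0.30 for Gas6 and -0.045 to 0.25 for Stab1. The cause was not tested. Each group had 3 libraries, which limits the precision of every interval, and Olr1 at 0 to 17 reads is limited by depth.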
